A study of Mus musculus with 12 samples.

Results

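The NRF2 antioxidant genes were followed in mouse liver across both Pml genotypes and both diets. The set was 10 genes: Nfe2l2, Keap1, Nqo1, Gclc, Gclm, Hmox1, Srxn1, Txnrd1, Gsr and Ephx1. Every probe set annotated to exactly 1 of these symbols was taken, which gave 14 probe sets among the 45037 that are not controls. They stand for 9 of the 17097 genes that have a probe set of their own in the annotation. Srxn1 had 4 probe sets, Nfe2l2 and Gsr had 2 each, and Nqo1, Gclc, Gclm, Hmox1, Txnrd1 and Ephx1 had 1 each. No probe set carried the Keap1 symbol alone in the annotation used, so Keap1 was not analysed here. All 14 probe sets were bright enough to stay in the test, from which the 40% of probe sets with the lowest mean were left out.

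The groups, with 3 liver extracts each, were male Pml knockout mice on a high-fat diet with 60% of calories from fat, male wild-type mice on that diet, male Pml knockout mice on a low-fat control diet with 10% of calories from fat, and male wild-type mice on the low-fat diet. All had eaten their diet for 20 weeks and were fasted for 8 h before the liver was taken. Each group is given as 8 mice. The sources used here give neither the age of the mice nor how and in which cells Pml was removed. Extracts are numbered 1 to 3 within a group, and a liver below means 1 such extract. Whether each is a separate mouse is not stated, so p-values measure only the spread between extracts, which may be technical.

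NRF2, the product of Nfe2l2, is a transcription factor that is made and destroyed continuously. KEAP1 holds it and hands it to a cullin ubiquitin ligase, and oxidants or electrophiles that modify KEAP1 let NRF2 escape, enter the nucleus and pair with small MAF proteins. The pair binds antioxidant response elements near genes for glutathione synthesis, thiol repair and detoxification. Because this control acts mainly on NRF2 protein, the mRNA of its targets is the usual readout in liver, where much of the body's glutathione is made.

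The antioxidant response element can be read directly in promoter letters, and these are shown for the members with the widest differences and for those with the stricter element. RefSeq promoter windows (GRCm38.p6, 250 bases before the gene start and 50 after it) were found for 7 of the 10 genes, Nfe2l2, Keap1, Nqo1, Gclm, Srxn1, Txnrd1 and Ephx1, with 9 windows in all. Both strands were searched for TGACNNNGC and for the looser TGANNNNGC, whose matches include all those of the first. Of all 32851 promoter windows, 12.4% held the first spelling and 41.3% the second. The Srxn1 window held 4 matches to the looser spelling, a number reached by 0.301% of all windows. This cutoff of 4 was taken from Srxn1 itself, and any link between the matches and the Srxn1 signals was not tested. The 250 bases before the Srxn1 start (chr2:152105274-152105523, plus strand) are followed by those before the Nqo1 start (chr8:107403206-107403455, minus strand). Capitals mark matches to TGANNNNGC on either strand.
Srxn1: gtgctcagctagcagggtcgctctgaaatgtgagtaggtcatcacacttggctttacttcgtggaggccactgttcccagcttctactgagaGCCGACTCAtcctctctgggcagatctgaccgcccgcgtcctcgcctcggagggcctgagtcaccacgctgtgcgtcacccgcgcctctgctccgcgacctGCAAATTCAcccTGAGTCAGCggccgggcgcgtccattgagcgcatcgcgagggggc
Nqo1: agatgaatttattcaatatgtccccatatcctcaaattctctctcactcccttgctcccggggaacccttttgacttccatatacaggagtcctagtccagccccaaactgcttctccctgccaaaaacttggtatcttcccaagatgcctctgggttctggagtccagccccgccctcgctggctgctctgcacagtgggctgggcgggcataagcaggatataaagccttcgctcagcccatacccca

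In Srxn1 the 3 capital runs start at positions -158, -57 and -45, counted from the gene start as position 1, and the last of them reads TGAGTCAGC. The Nqo1 and Ephx1 windows held neither spelling, which says only that these letters are not in these windows. Keap1 had a match to the looser spelling alone. The stretches with the stricter TGACNNNGC, in capitals on the strand printed, were those of Nfe2l2 (chr2:75704885-75704913, minus strand), Gclm (chr3:122245413-122245441, plus strand), Txnrd1 at 1 of its 3 starts (chr10:82859104-82859132, plus strand) and Srxn1 just after its start (chr2:152105542-152105570, plus strand). Except in Nfe2l2, the match lies on the strand opposite to the gene, so the capitals show its reverse complement.
Nfe2l2: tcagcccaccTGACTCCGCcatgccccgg
Gclm: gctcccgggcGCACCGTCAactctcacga
Txnrd1: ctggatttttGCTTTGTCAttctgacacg
Srxn1: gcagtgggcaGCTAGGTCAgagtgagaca

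The 12 arrays had Pearson's r of 0.986 to 0.995 with each other across 45141 probe sets, which are not independent replicates. Pml itself was lower in all 6 knockout extracts (3.04 to 3.82) than in all 6 wild-type extracts (4.92 to 5.40) by probe set 1448757_PM_at, in the direction of the labels. The log2 difference averaged over the diets was -1.66 (SE 0.132, limma adjusted p = 0.000339), with -1.80 on the high-fat diet (adjusted p = 0.00739) and -1.51 on the low-fat diet (adjusted p = 0.0560). The 8 hepatocyte markers averaged 12.63 to 12.91 across the arrays. Knockout low-fat replicate 2 and knockout high-fat replicate 3 stood apart in Kupffer cell and macrophage markers, whose mean over 12 genes was 4.92 and 5.51 there, against 6.04 to 6.95 on the other arrays. The mean of 12 markers of liver sinusoidal endothelium was lower on these arrays and on knockout high-fat replicate 2 (5.81 to 5.92 on the 3 arrays) than on the others (6.37 to 6.82). In whole liver, fewer cells of a type and less RNA per cell cannot be told apart. Levels below are log2 signals, in which 1 unit is a 2-fold change, and values after ± are SD over the 3 extracts of a group. Signals of different probe sets are not compared with each other, since each probe set binds with its own strength.

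**Figure D1:**
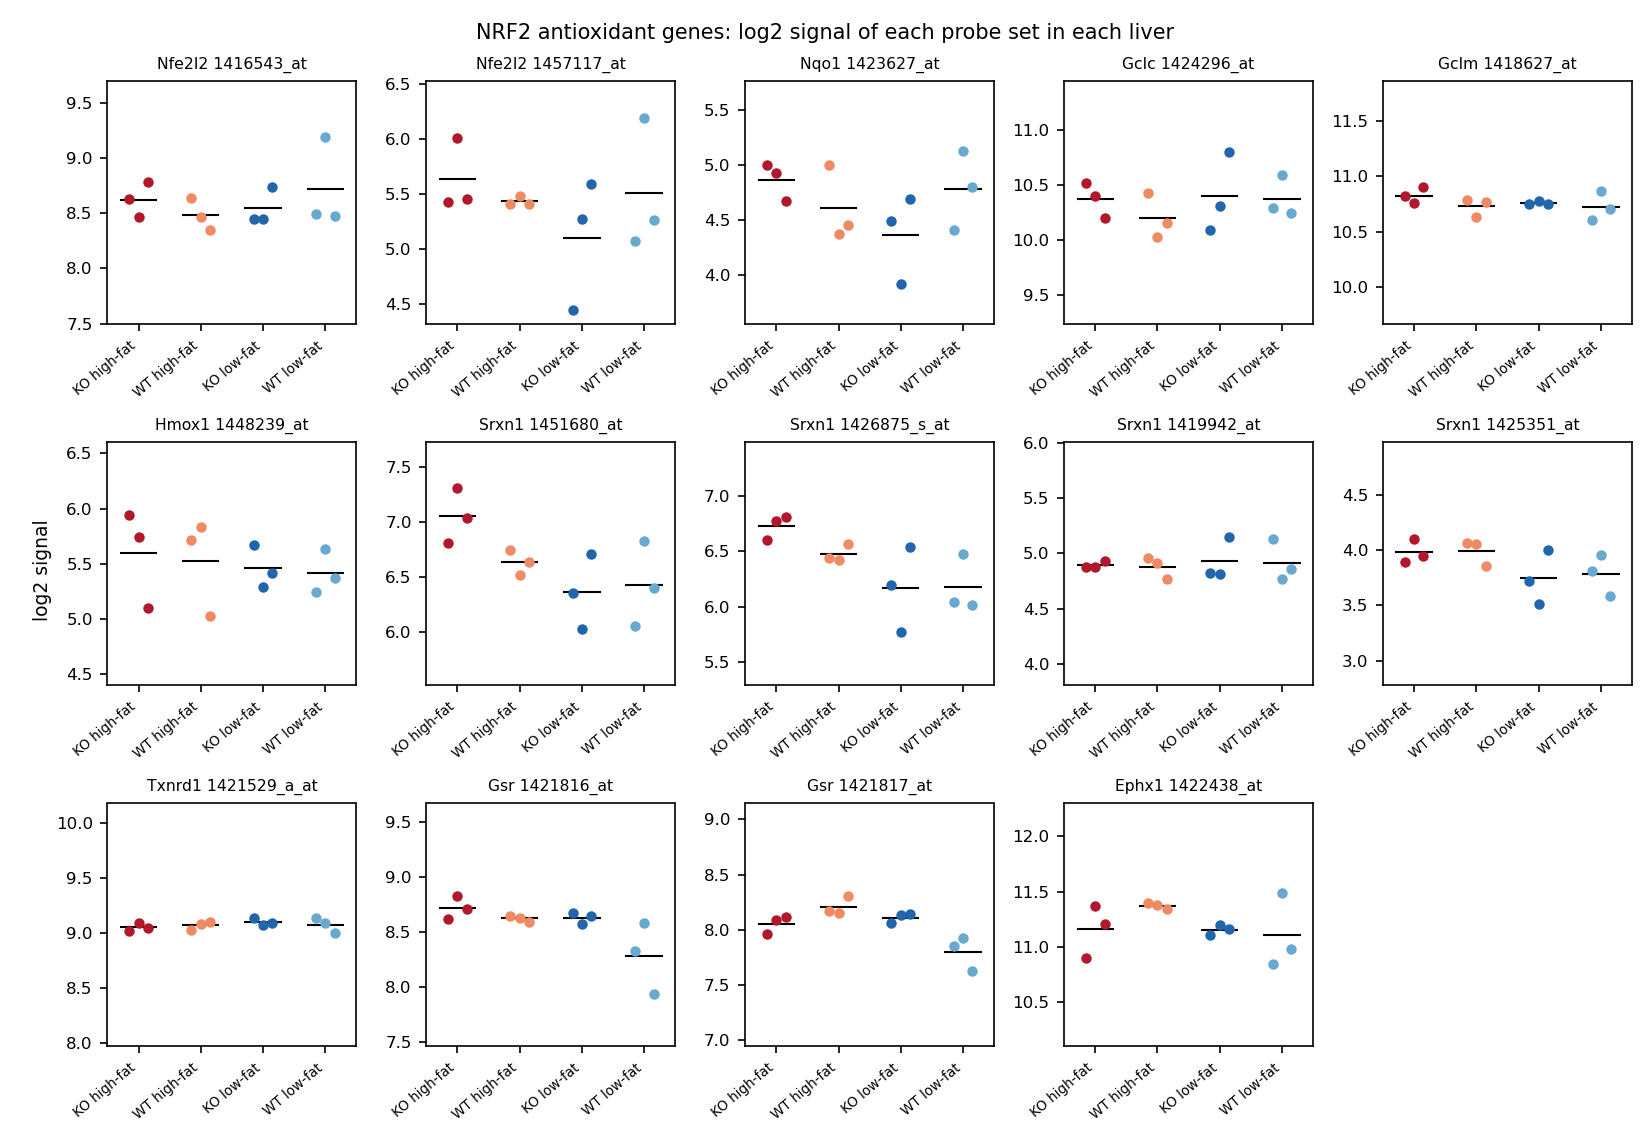
Log2 signal of the 14 member probe sets, a panel each, in Pml knockout (KO) and wild-type (WT) livers on the high-fat and low-fat diets. Points are single extracts in the order of their replicate number, and bars are group means of 3 extracts. Each panel has its own axis, and the PM in probe set names is left out. For Srxn1 1451680_PM_at the 3 knockout high-fat livers (6.81 to 7.31) lie above the means of the other groups.

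Nfe2l2, the gene of NRF2 itself, separated no group from another by either of its probe sets. Probe set 1416543_PM_at read 8.63, 8.46 and 8.78 in knockout high-fat livers and 8.64, 8.46 and 8.35 in wild-type high-fat livers. On the low-fat diet it read 8.45, 8.45 and 8.74 in knockout livers, against 8.49, 9.19 and 8.48 in wild-type livers. The groups overlapped throughout, and wild-type low-fat replicate 2 was the highest of the 12. The second probe set, 1457117_PM_at, was much more scattered, from 4.45 in a knockout low-fat liver to 6.19 in the same wild-type low-fat replicate 2. Its pooled SD within groups was 0.450, against 0.247 for 1416543_PM_at.

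Nqo1, the quinone reductase that is the textbook NRF2 target, was scattered within every group. It read 4.999, 4.93 and 4.67 in knockout high-fat livers, against 4.997, 4.37 and 4.46 in wild-type high-fat livers. In low-fat livers it read 4.49, 3.92 and 4.69 in knockouts, against 4.42, 5.12 and 4.80 in wild types. The lowest of all 12 was knockout low-fat replicate 2, the array with the lowest macrophage marker mean, and the groups overlapped in every pairing. That value, 3.92, lay below the median of all probe sets on its array (3.98), so Nqo1 was dim there. Over the 12 arrays the Pearson's r of Nqo1 with the macrophage marker mean was 0.57, as a description with no test.

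Glutathione is built by glutamate-cysteine ligase, whose catalytic subunit is Gclc and whose modifier subunit is Gclm. Gclm was among the steadiest members, with means on the high-fat diet of 10.82 ± 0.0728 in knockout livers and 10.73 ± 0.0849 in wild-type livers. The low-fat means were 10.76 ± 0.0156 in knockout livers and 10.72 ± 0.135 in wild-type livers. All 12 extracts lay within 0.30 log2 units. Gclc averaged 10.37 ± 0.163 in knockout livers and 10.20 ± 0.202 in wild-type livers on the high-fat diet. On the low-fat diet it averaged 10.40 ± 0.362 in knockout livers and 10.37 ± 0.189 in wild-type livers. Its highest value, 10.80, was in knockout low-fat replicate 3, and its groups overlapped.

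Gsr, glutathione reductase, turns oxidised glutathione back to its reduced form with NADPH. Probe set 1421816_PM_at read 8.62, 8.83 and 8.71 in knockout high-fat livers and 8.65, 8.63 and 8.59 in wild-type high-fat livers. In low-fat livers it read 8.67, 8.57 and 8.65 in knockouts, against 8.33, 8.58 and 7.94 in wild types. Wild-type low-fat livers were thus the low and scattered group, and replicate 3 was the lowest of the 12. Probe set 1421817_PM_at read 7.96, 8.09 and 8.12 in knockout high-fat livers, 8.17, 8.15 and 8.30 in wild-type high-fat livers, 8.06, 8.13 and 8.14 in knockout low-fat livers and 7.85, 7.93 and 7.63 in wild-type low-fat livers. By this probe set every wild-type low-fat liver lay below the wild-type high-fat and the knockout low-fat livers.

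Srxn1, sulfiredoxin, repairs peroxiredoxins that have been over-oxidised by peroxide. Probe set 1451680_PM_at read 6.81, 7.31 and 7.04 in knockout high-fat livers and 6.75, 6.52 and 6.64 in wild-type high-fat livers. In low-fat livers it read 6.36, 6.03 and 6.71 in knockouts, against 6.06, 6.82 and 6.41 in wild types. All 3 knockout high-fat livers lay above the wild-type high-fat and the knockout low-fat livers. Probe set 1426875_PM_s_at, whose suffix marks probes that can bind more than 1 transcript, read 6.60, 6.77 and 6.81 in knockout high-fat livers and 6.44, 6.42 and 6.56 in wild-type high-fat livers. It read 6.19, 5.77 and 6.54 in knockout low-fat livers and 6.04, 6.47 and 6.01 in wild-type low-fat livers. Here too the knockout high-fat livers lay above the wild-type high-fat and the knockout low-fat livers.

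The other Srxn1 probe sets did not all share this pattern. Probe set 1425351_PM_at averaged 3.98 ± 0.109 in knockout livers and 3.99 ± 0.120 in wild-type livers on the high-fat diet. On the low-fat diet it averaged 3.75 ± 0.247 in knockout livers and 3.78 ± 0.188 in wild-type livers, all close to the floor of the signals tested (3.603). Probe set 1419942_PM_at lay between 4.76 and 5.15 in all 12 extracts, with means of 4.89 (knockout) and 4.88 (wild type) on the high-fat diet and 4.93 (knockout) and 4.92 (wild type) on the low-fat diet. Over the 12 arrays, Pearson's r was 0.92 between 1451680_PM_at and 1426875_PM_s_at, as a description with no test. With these 2, in that order, 1425351_PM_at had r of 0.73 and 0.82, and 1419942_PM_at had -0.11 and 0.02.

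Txnrd1, thioredoxin reductase, keeps thioredoxin reduced and was the steadiest member. Its 12 values lay between 8.996 and 9.14, and its high-fat means were 9.05 ± 0.0382 in knockout livers and 9.07 ± 0.0410 in wild-type livers. The low-fat means were 9.10 ± 0.0346 in knockout livers and 9.07 ± 0.0706 in wild-type livers.

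Hmox1, heme oxygenase, splits heme and is made in liver by macrophages as well as hepatocytes. It read 5.94, 5.74 and 5.10 in knockout high-fat livers and 5.71, 5.84 and 5.03 in wild-type high-fat livers. The low-fat values were 5.67, 5.29 and 5.42 in knockout livers, against 5.25, 5.64 and 5.37 in wild-type livers. Each high-fat group held both high and low livers, so the spread within those groups (SD 0.436 in knockout and 0.434 in wild-type livers) was larger than any difference between groups. The macrophage marker mean was 6.95, 6.54 and 5.51 in the knockout high-fat livers and 6.37, 6.49 and 6.45 in the wild-type high-fat livers. It lay between 4.92 and 6.70 in knockout low-fat livers and between 6.04 and 6.27 in wild-type low-fat livers, and 11 of the 12 markers passed the filter on dim probe sets. Over the 12 arrays its r with Hmox1 was 0.63, and its part in the Hmox1 values was not tested.

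Ephx1, the microsomal epoxide hydrolase, detoxifies reactive epoxides and also answers to the drug receptors CAR and PXR. It read 10.90, 11.37 and 11.21 in knockout high-fat livers and 11.40, 11.38 and 11.35 in wild-type high-fat livers. In low-fat livers it read 11.11, 11.20 and 11.16 in knockouts, against 10.85, 11.49 and 10.98 in wild types. The wild-type high-fat livers were tightly grouped near the top, and the wild-type low-fat livers held both the lowest and the highest of the 12 values.

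**Figure D2:**
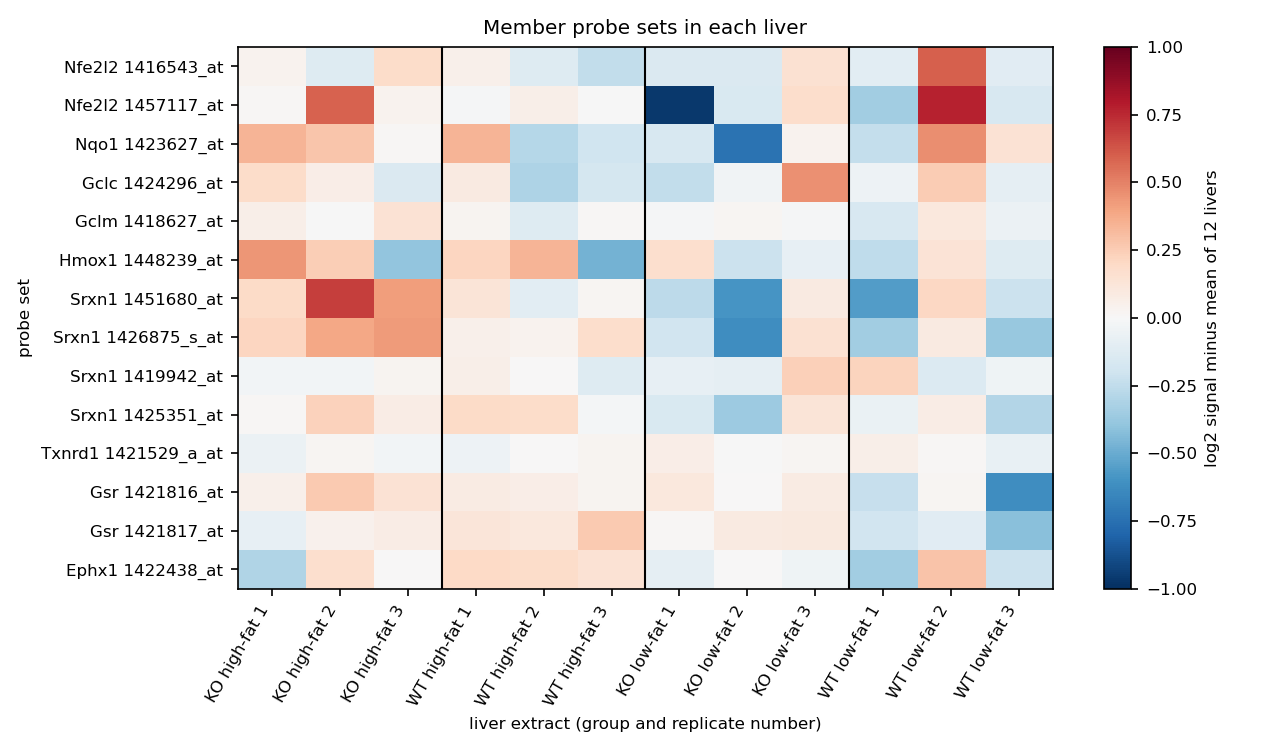
Log2 signal of each member probe set (rows) in each liver (columns), minus the mean of that probe set over the 12 extracts. Red is above and blue below the mean, on a scale of -1 to 1 on which larger values are capped. Wild-type low-fat replicate 2 lies above the mean in 12 of 14 rows, and replicate 3 of that group in 1.

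Livers of 1 group differed in the whole set. In wild-type low-fat livers, replicate 2 lay above the mean in 12 of 14 probe sets and was the highest of the 12 extracts in 4 of them, whereas replicates 1 and 3 lay above it in 2 and 1. Knockout high-fat livers lay above the mean in 10, 11 and 11 probe sets, and wild-type high-fat livers in 12, 9 and 7. Among knockout low-fat livers the numbers were 4, 4 and 11, and replicate 2 was the lowest of all in 4. Within each low-fat group, then, the livers disagreed with each other.

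The first genotype contrast was made under a fat load. Sulfiredoxin had the largest positive value: Srxn1 by 1451680_PM_at was 1.34 times as high in knockout livers (log2 difference 0.42, SE 0.205, 95% interval -0.02 to 0.86), with no overlap between the groups. By 1426875_PM_s_at the difference was 0.25 (SE 0.179), also without overlap. Replicates 2 and 3 of the knockout high-fat group, which read highest in these probe sets, were also the ones low in endothelial markers (5.82 and 5.81, against 6.56 in replicate 1 and 6.37 to 6.61 in wild-type high-fat livers), and the part of this in the Srxn1 values was not tested. Ephx1 had the most negative value, at -0.22 (SE 0.140), and Gsr by 1421817_PM_at had -0.15 with all knockout livers below all wild-type livers. None of these passed the test: 0 of 14 member probe sets had a limma adjusted p under 0.05 (the smallest was 0.998), against 1 of 27022 probe sets (0.0037%). At an unadjusted p under 0.05 there were 0 members, against 4.38% of all probe sets. Without overlap 2 members lay higher, against 6.19% of all probe sets, and 1 lay lower, against 4.93%.

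The members' median log2 difference on this diet was 0.09, against 0.01 over all probe sets tested, and 10 of 14 members were above 0, against 53.1% of all probe sets. For 10 of 14 the 95% interval stayed within a 1.5-fold change in either direction. Those that did not were 1451680_PM_at and 1426875_PM_s_at of Srxn1, Nqo1 (0.26, interval -0.24 to 0.75) and 1457117_PM_at of Nfe2l2 (0.20, interval -0.46 to 0.85). The intervals of these 4 probe sets do not exclude a 1.5-fold difference. The narrowest intervals were those of Txnrd1 (-0.17 to 0.13) and Gclm (-0.07 to 0.25).

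**Figure D3:**
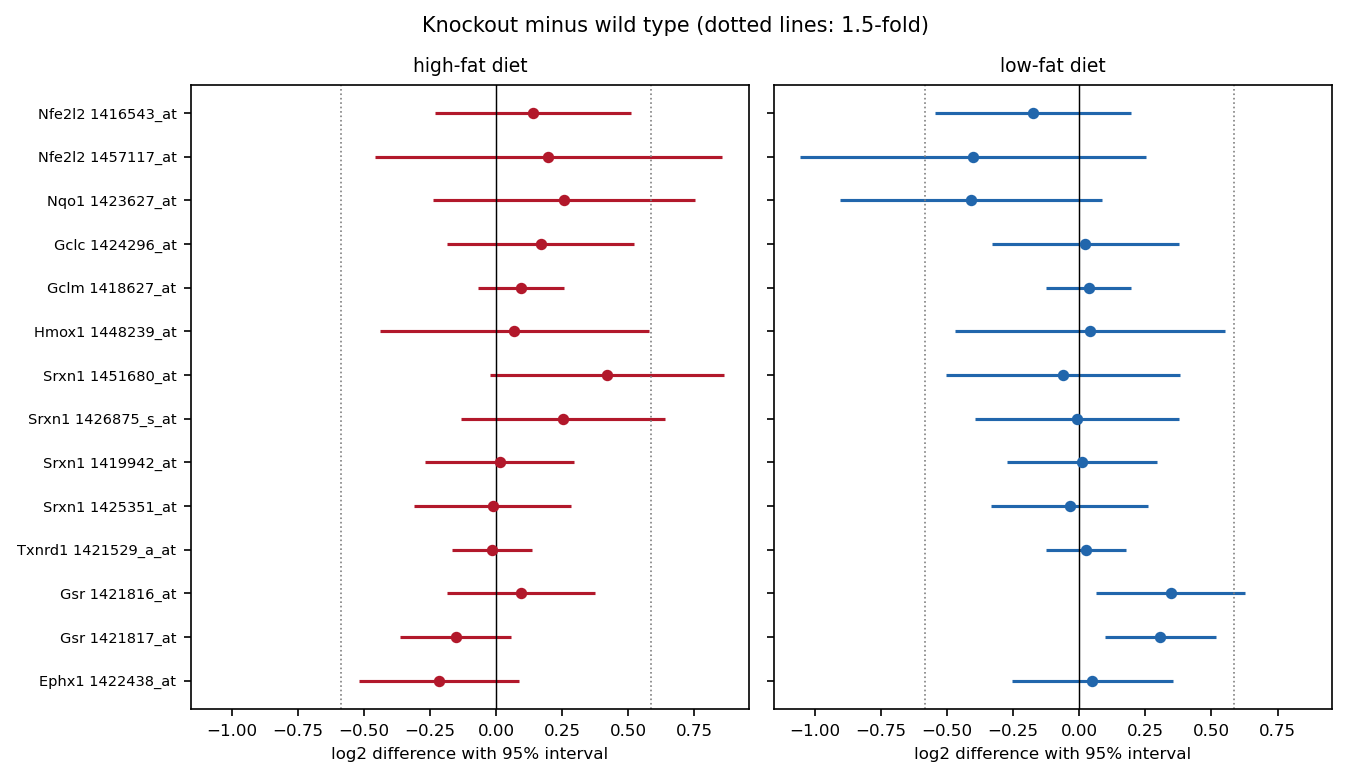
Log2 difference, knockout minus wild type, of each member probe set on the high-fat diet (left) and the low-fat diet (right). Points are limma estimates from 3 against 3 extracts, lines are 95% intervals, and dotted lines mark a 1.5-fold change. On the low-fat diet the Gsr intervals lie above 0, and neither probe set passed after adjustment over all probe sets.

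On the low-fat diet, knockout livers had higher Gsr values than wild-type livers. The log2 difference was 0.31 by 1421817_PM_at (SE 0.0972, 95% interval 0.10 to 0.52, unadjusted p = 0.00757, limma adjusted p = 0.519), a 1.24-fold difference with no overlap. By 1421816_PM_at it was 0.35 (SE 0.130, limma adjusted p = 0.570), with 1 wild-type liver, replicate 2, inside the range of the knockouts. Leaving out replicate 3 of the wild types gave 0.17 and leaving out their replicate 2 gave 0.49, neither past the test. Nqo1 had the most negative value, at -0.41 (SE 0.229, interval -0.90 to 0.09), followed by Nfe2l2 by 1457117_PM_at at -0.40 (SE 0.303). The Srxn1 values were between -0.06 and 0.01. Again 0 of 14 members passed, against 0 of 27022 probe sets (0%), and 2 had an unadjusted p under 0.05, against 7.78% of all. Of the 14, 1 (the Gsr probe set 1421817_PM_at) lay higher without overlap, against 6.01% of all probe sets, and 0 lay lower, against 5.24%. The members' median was 0.02, against -0.002 over all probe sets, and 11 of 14 intervals stayed within 1.5-fold.

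Averaged over both diets, no member separated the genotypes. The 14 differences ran from -0.10, for Nfe2l2 by 1457117_PM_at, to 0.22, for Gsr by 1421816_PM_at (SE 0.0917, limma adjusted p = 0.765). All 14 intervals lay within 1.5-fold in either direction. By limma 0 of 14 passed, against 1 of 27022 probe sets (0.0037%), which was Pml. Without overlap 0 members lay higher, against 0.126% of all probe sets, and 0 lay lower, against 0.0851%. An unadjusted p under 0.05 was found for 1 member, against 6.49% of all probe sets.

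In knockout livers the high-fat diet went with higher Srxn1 values by 2 of its 4 probe sets. By 1451680_PM_at the level was 7.05 ± 0.251 on the high-fat diet, against 6.37 ± 0.337 on the low-fat diet, a 1.61-fold difference (log2 difference 0.69, SE 0.205, 95% interval 0.24 to 1.13, limma adjusted p = 0.139). By 1426875_PM_s_at the difference was 0.56 (SE 0.179, interval 0.18 to 0.95, adjusted p = 0.166). The diets did not overlap in either. Probe sets 1425351_PM_at and 1419942_PM_at had 0.23 (SE 0.137) and -0.03 (SE 0.131), so the probe sets disagree on the size, and 1419942_PM_at showed no rise. Nqo1, the quinone reductase, had 0.50 (SE 0.229, unadjusted p = 0.0492, adjusted p = 0.363) and Nfe2l2 by 1457117_PM_at 0.53 (SE 0.303, adjusted p = 0.495), while the other Nfe2l2 probe set had 0.08. Gclc, Gclm, Txnrd1, Gsr and Ephx1 had between -0.05 and 0.09, and Hmox1 had 0.14 (SE 0.236).

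By limma 0 of 14 members passed in this comparison, against 318 of 27022 probe sets (1.18%), of which 193 were higher (0.714%) and 125 lower (0.463%). An unadjusted p under 0.05 was found for 3 members, against 13.7% of all probe sets, and 2 lay higher without overlap, against 8.51% of all, with 0 lower, against 9.19%. The members' median was 0.08, against -0.01 over all. The Srxn1 result turned on single extracts: without knockout low-fat replicate 3, the highest of its group, 1426875_PM_s_at passed (log2 difference 0.75, adjusted p = 0.0466). Without knockout high-fat replicate 2, low in endothelial markers alone, the difference was 0.56 by 1451680_PM_at and 0.54 by 1426875_PM_s_at, neither past the test. Without the 2 extracts low in macrophage markers, 1 in each group, the differences were 0.53 and 0.32 for 1451680_PM_at and 1426875_PM_s_at (adjusted p = 0.467 and 0.583), and Nqo1 had 0.37 (adjusted p = 0.659).

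In wild-type livers the member with the largest diet difference was Gsr instead. By 1421817_PM_at it averaged 8.21 ± 0.0830 on the high-fat diet, against 7.80 ± 0.158 on the low-fat diet, a 1.32-fold difference (log2 difference 0.40, SE 0.0972, 95% interval 0.19 to 0.61, unadjusted p = 0.00111, limma adjusted p = 0.199). By 1421816_PM_at the difference was 0.34 (SE 0.130, adjusted p = 0.514), and the diets did not overlap in either. For 1421816_PM_at, leaving out low-fat replicate 3 gave 0.17 and leaving out low-fat replicate 2 gave 0.49, again neither past the test. This comparison and the genotype comparison on the low-fat diet share the wild-type low-fat livers, in which Gsr was low. Srxn1 had 0.20 and 0.30 by 1451680_PM_at and 1426875_PM_s_at (SE 0.205 and 0.179), and Ephx1 had 0.27 (SE 0.140, adjusted p = 0.657). Nqo1 had -0.17 and Nfe2l2 by 1416543_PM_at had -0.24 (SE 0.172).

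Of the 14 members 0 passed in wild-type livers by limma, against 28 of 27022 probe sets (0.104%), of which 10 were higher (0.037%) and 18 lower (0.0666%), and 2 had an unadjusted p under 0.05, against 8.3% of all. Both Gsr probe sets, 2 of 14, lay higher without overlap, against 6.53% of all probe sets, and 0 lay lower, against 8.45%. The median of the members was 0.06, against -0.02 over all probe sets, and 6 of 14 intervals stayed within 1.5-fold.

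**Figure D4:**
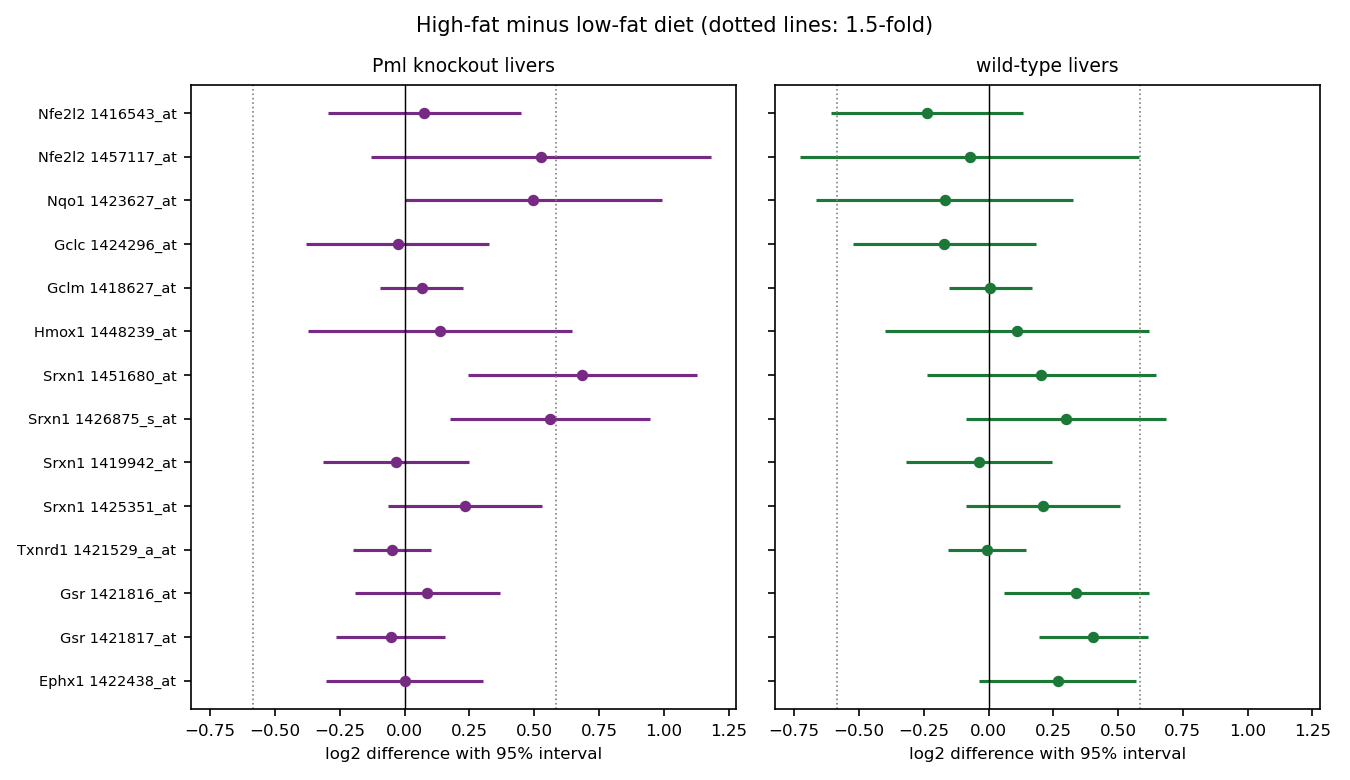
Log2 difference, high-fat minus low-fat diet, of each member probe set in Pml knockout livers (left) and wild-type livers (right). Points are limma estimates from 3 against 3 extracts, lines are 95% intervals, and dotted lines mark a 1.5-fold change. Srxn1 lies farthest to the right in knockout livers (0.69 and 0.56) and Gsr in wild-type livers (0.34 and 0.40).

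Averaged over both genotypes, Srxn1 had the largest diet differences among the members. Srxn1 had 0.43 by 1426875_PM_s_at (1.35-fold, SE 0.126, 95% interval 0.16 to 0.70, limma adjusted p = 0.111) and 0.44 by 1451680_PM_at (SE 0.145, adjusted p = 0.147), with 0.22 and -0.03 by 1425351_PM_at and 1419942_PM_at. Gsr had 0.21 and 0.18 (SE 0.0917 and 0.0687, adjusted p = 0.283 and 0.235). Of the 14 members 0 passed, against 561 of 27022 probe sets (2.08%), of which 292 were higher (1.08%) and 269 lower (0.995%), and 5 had an unadjusted p under 0.05, against 15.5% of all probe sets. None of the 14 separated the 6 high-fat from the 6 low-fat livers without overlap, against 1.01% of all probe sets higher and 1.08% lower. Srxn1 by 1426875_PM_s_at passed without knockout low-fat replicate 3 (0.52, adjusted p = 0.0334), with array weights (0.46, adjusted p = 0.0349) and with quantile normalization (0.46, adjusted p = 0.0471). Without the 2 extracts low in macrophage markers it had 0.31 (adjusted p = 0.266).

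Whether the diet acted differently in the genotypes was tested as the difference of the diet effects, knockout minus wild type. Gsr by 1421817_PM_at had -0.46 (SE 0.137, 95% interval -0.76 to -0.16, unadjusted p = 0.00531, limma adjusted p = 0.885), from a diet difference of -0.05 in knockout and 0.40 in wild-type livers. By 1421816_PM_at the value was -0.25 (SE 0.183). Nqo1 had 0.67 (SE 0.324, interval -0.03 to 1.37, adjusted p = 0.894), from 0.50 in knockout and -0.17 in wild-type livers. Srxn1 had 0.48 (SE 0.290) by 1451680_PM_at and 0.26 (SE 0.253) by 1426875_PM_s_at, neither past the test. By limma 0 of 14 members passed, against 0 of 27022 probe sets (0%), and 1 had an unadjusted p under 0.05, against 5.47% of all. Here 4 of 14 intervals stayed within 1.5-fold, so this comparison bounds few of the members.

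Across the 4 comparisons of single groups, the data bound the steady probe sets closely. The 95% intervals of Txnrd1 allowed at most a 1.15-fold difference in either direction, those of Gclm 1.19-fold and those of Srxn1 by 1419942_PM_at 1.25-fold. This last probe set did not follow 1451680_PM_at or 1426875_PM_s_at over the arrays (r of -0.11 and 0.02). Its interval therefore does not bound Srxn1 as a gene. For Gclc, Ephx1, Gsr and Nfe2l2 (1416543_PM_at) the largest fold allowed was 1.44 for Gclc, 1.48 for Ephx1, 1.54 and 1.53 for the Gsr probe sets and 1.53 for Nfe2l2. Differences of up to 1.57-fold in Hmox1, 1.93-fold in Srxn1 by 1426875_PM_s_at, 1.99-fold in Nqo1, 2.18-fold in Srxn1 by 1451680_PM_at and 2.27-fold in Nfe2l2 by 1457117_PM_at lay within their intervals.

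Other genes were followed in 8 lists of 100 genes, of which 84 had a probe set in the test (132 probe sets). Of these lists 1, with 17 genes, is of CAR and PXR and not of the NRF2 pathway. Between genotypes, limma called 0 of the 132 on the high-fat diet, on the low-fat diet and averaged over the diets, where 11, 11 and 12 of them, in that order, had an unadjusted p under 0.05. Over all probe sets the shares at that level were 4.38%, 7.78% and 6.49% in the same order. Between diets, averaged over the genotypes, 9 probe sets of 7 genes were higher and 6 probe sets of 5 genes were lower. This was 11.4% of the 132, against 2.08% of all probe sets. The lists were chosen with earlier results of these data known, so the shares here and below do not test for an excess. In knockout livers 6 probe sets were higher and 3 lower (6.82% of the 132, against 1.18% of all probe sets). Leaving out an extract lost Cyp2c37, Entpd5, Nr1i3, Gstk1 and Gstm6 in 8, 6, 5, 4 and 3 of 12 fits, in that order. Me1, Aldh3a2 and Aldh1a1 were lost in 0. Without the 2 extracts low in macrophage markers, which left 53 calls over all probe sets, the 6 higher calls were lost (limma adjusted p = 0.0720 to 0.227). The 3 lower ones stayed. In wild-type livers 0 were higher and 1, of Me1, was lower (0.758% of the 132, against 0.104% of all probe sets; log2 difference -1.21, adjusted p = 0.0365), a call that was lost in 7 of 12 fits that left out an extract (adjusted p up to 0.204).

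Among the enzymes that make NADPH, which feeds glutathione reductase and thioredoxin reductase, Me1 and Tkt fell on the high-fat diet. Of 10 probe sets of 6 genes, 3 fell and 0 rose when the genotypes were averaged, and the median log2 difference was -0.49, against -0.01 over all probe sets. Me1, malic enzyme, which also serves fatty acid synthesis, averaged 8.83 ± 0.162 in high-fat against 10.26 ± 0.266 in low-fat knockout livers by 1416632_PM_at. In wild-type livers it averaged 8.98 ± 0.364 on the high-fat against 10.19 ± 0.322 on the low-fat diet. It fell 2.49-fold (log2 difference -1.32, SE 0.137, limma adjusted p = 0.000357), and by 1430307_PM_a_at 2.73-fold. Tkt, transketolase of the pentose phosphate pathway, fell 1.47-fold (-0.56, SE 0.0863, adjusted p = 0.00584). Between genotypes on the high-fat diet this list's median was 0.06.

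Glutathione S-transferases, which join glutathione to electrophiles, moved in both directions with the diet. Of 25 probe sets of 18 genes, 2 were lower and 1 higher on average over the genotypes, with a median of -0.01. Gstm6, a class mu transferase, read 8.35, 7.85 and 7.74 in knockout and 7.78, 8.00 and 7.86 in wild-type high-fat livers. In low-fat livers it read 9.13, 8.63 and 9.45 in knockouts and 8.84, 8.95 and 8.71 in wild types, above all high-fat livers. It fell 2.03-fold (log2 difference -1.02, SE 0.133, limma adjusted p = 0.00205). Gstk1, a transferase of mitochondria and peroxisomes, rose 1.31-fold (0.39, SE 0.0508, adjusted p = 0.00220). Gstm3 fell by 0.68 by 1427474_PM_s_at (adjusted p = 0.0493) and had -0.65 by 1427473_PM_at (adjusted p = 0.105). The first call was lost in 10 of 12 fits that left out an extract (adjusted p up to 0.131). Genes of this family resemble each other closely, so signals may be shared between them.

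Among 21 probe sets of 17 other genes of the NRF2 program, 5 were higher and 1 lower on the high-fat diet when averaged over the genotypes, with a median of 0.15. Aldh3a2, a fatty aldehyde dehydrogenase that PPAR-alpha also controls, rose 2.03-fold (log2 difference 1.02, SE 0.125, limma adjusted p = 0.00140). Aldh1a1, a retinal dehydrogenase, rose 1.29-fold (0.37, limma adjusted p = 0.00436). In knockout livers the difference was 0.56 (adjusted p = 0.00541). In wild-type livers it was 0.18 (adjusted p = 0.565), and the diets overlapped. The difference of the diet effects was 0.38 (limma unadjusted p = 0.00410, adjusted p = 0.885). Ces2a, a carboxylesterase, fell 1.30-fold (-0.38, adjusted p = 0.0118). This call was lost without the 2 extracts low in macrophage markers, where the difference was -0.36 (adjusted p = 0.0591). Entpd5, a nucleotidase of the endoplasmic reticulum, rose by 3 of its probe sets (0.41 to 0.48), and these calls were lost in 3 to 9 of 12 fits that left out an extract (adjusted p up to 0.102).

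Abcc3, an exporter of conjugates, was the 1 of 11 probe sets to pass in glutathione synthesis, use and transport (0.60, SE 0.119, adjusted p = 0.0213), and its call was lost in 3 of 12 fits that left out an extract (without knockout high-fat replicate 2, wild-type high-fat replicate 1, and replicate 1 of the knockouts on low fat, with adjusted p up to 0.0633). In the CAR and PXR list, whose median log2 difference was 0.002, 2 of 15 probe sets rose. They were the target Cyp2c37, a cytochrome (0.65, limma adjusted p = 0.0293), and Nr1i3, the gene of the receptor CAR (0.50, adjusted p = 0.0216). Both calls were lost without the 2 extracts low in macrophage markers, where the differences were 0.62 and 0.50 (adjusted p = 0.106 and 0.0656). Leaving out a single extract lost Cyp2c37 in 7 of 12 fits and Nr1i3 in 3 of 12. None of 22 probe sets of NRF2 partners and regulators passed, nor any of 18 of thioredoxins and peroxiredoxins or of 10 of superoxide dismutases and catalase. The repressor Bach1, which competes with NRF2 for its elements, had -0.60 (SE 0.202, adjusted p = 0.550) in knockout against wild-type low-fat livers by 1449311_PM_at, and -0.21 by 1440831_PM_at. Between the diets in wild-type livers these probe sets had -0.78 (SE 0.202, adjusted p = 0.255) and 0.008. Ugdh, of the other genes of the NRF2 program, had 0.30 in knockout against wild-type livers averaged over the diets (SE 0.0703, limma unadjusted p = 0.000981, adjusted p = 0.743). In knockout against wild-type high-fat livers the CAR target Cyp2b10 had -1.29 by 1425645_PM_s_at (SE 0.382) and -0.40 by 1451787_PM_at (adjusted p = 0.998 for both). Cyp3a11, a PXR target, had 0.84 there by 1416809_PM_at (SE 0.270, adjusted p = 0.998).

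**Figure D5:**
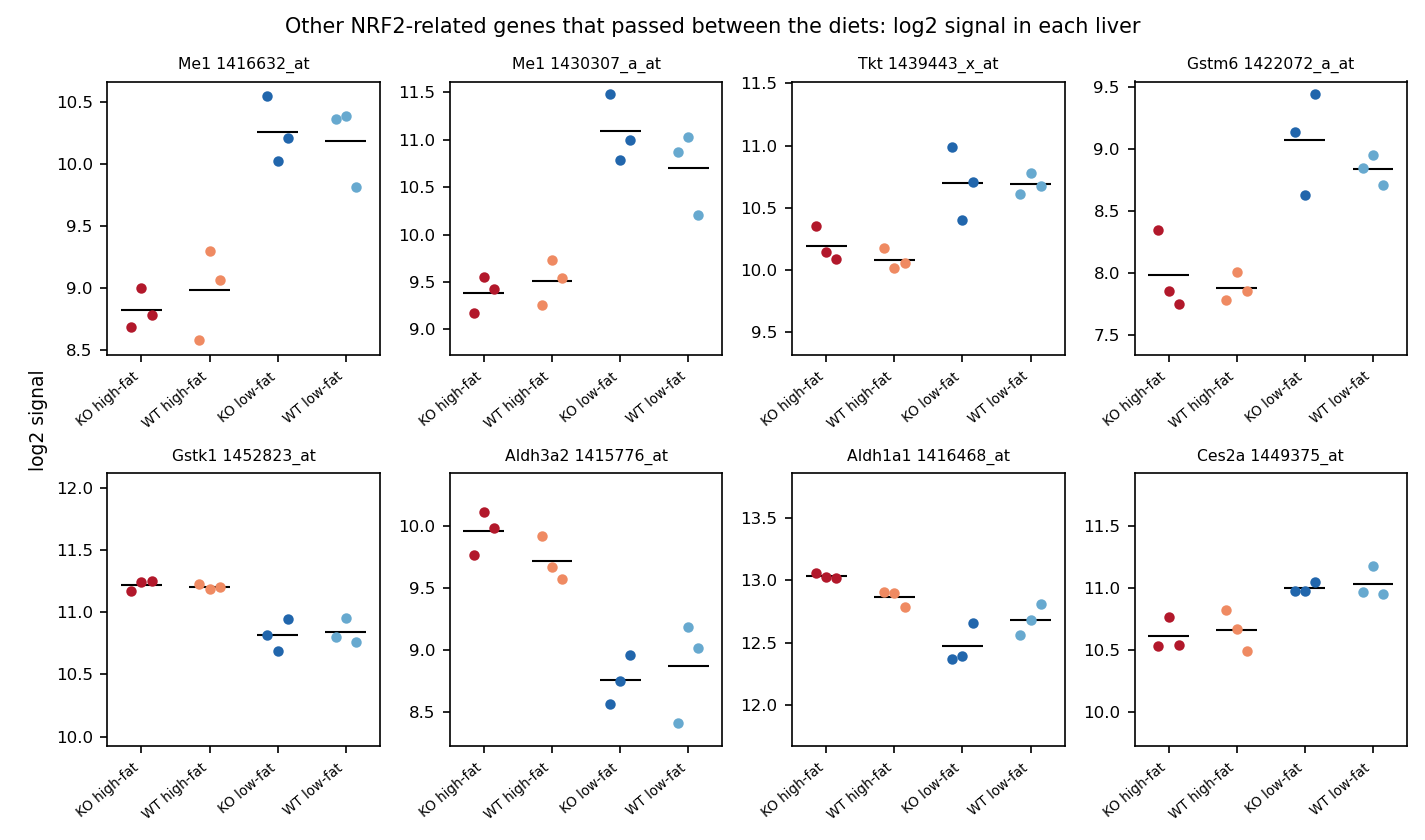
Log2 signal of 7 of the NRF2-related genes that passed between the diets when the genotypes were averaged, in knockout (KO) and wild-type (WT) livers. Points are single extracts and bars are group means of 3 extracts. High-fat livers lie below low-fat livers for Me1, Tkt, Gstm6 and Ces2a, and above them for Gstk1 and Aldh3a2, in both genotypes. For Aldh1a1 the diets overlap in wild-type livers.

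Genes whose signals over the 12 arrays most resembled a member's were found by Pearson's r among 19111 to 19114 probe sets with 1 gene, as a description of these arrays with no test. The nearest to Srxn1 by 1451680_PM_at were Tor1aip2 (r = 0.96), Tppp (0.95) and Ube2d3 (0.95). The nearest to Nqo1 were Prps2 (0.93), Cd99 (0.92) and Cd99l2 (0.90). For Hmox1 they were Jarid2 (0.88), Pttg1ip (0.87) and Slc40a1 (0.86). Gsr by 1421816_PM_at resembled Psmb4 most (0.96), with a Spearman's rho of 0.59. For Nfe2l2, Gclc, Gclm, Txnrd1 and Ephx1 the nearest genes were Exog (0.89), Arhgap18 (0.94), Wdr35 (0.90), Wdr19 (0.90) and Cntrl (0.92).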

How the data were processed

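Total RNA of 12 liver extracts was taken up in Trizol, labelled with biotin and hybridised to Affymetrix arrays, per the labels. The deposited values are log2 signals per probe set, and the submitters' processing notes name RMA without a version. RMA gives all arrays a shared distribution, so a shift common to every gene would not be seen. Of 45141 probe sets 104 are controls and were left out, and of the other 45037 the 40% with the lowest mean were not tested, which left 27022. The annotation names 1 gene for 28898 of them before that filter, and those genes give every name used.

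Group means were fitted over all 12 arrays with limma 3.58.1 in R 4.3.3, with a variance trend and 8 residual degrees of freedom. A probe set passed at a Benjamini-Hochberg adjusted p of 0.05 over all 27022 within each of 7 comparisons, and no correction was made across comparisons. Intervals are 95% intervals of that fit. With 3 extracts a group an exact permutation test cannot go below 0.1, so it was not used. The number of arrays limits the precision. The fit was also tested on data simulated with normal noise, in which 200 of 27022 probe sets were changed in knockout high-fat livers. Between the genotypes on that diet it recovered 50.7% of 1.5-fold, 98.5% of 2-fold and 100% of 4-fold changes. Of its 172 calls, 6 were false. These shares hold only for that simulated noise and 200 changed probe sets. The real comparison gave 1 call, Pml, so they cannot be carried over to it. On the low-fat diet Pml was 2.84-fold lower and did not pass (limma adjusted p = 0.0560). On the high-fat diet Cyp2b10 by 1425645_PM_s_at was 2.44-fold lower and did not pass (limma adjusted p = 0.998).

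The members and lists were chosen with earlier results of these data known. Named are every member probe set, Pml, and genes most like a member over the arrays. Of each of the 8 lists, those that passed in a comparison (up to 4) are named. Where none passed, some of those with the smallest p are named. Alternatives were quantile normalization, median centring, other filters, tests on genes, other variance models, array weights, fits of the compared groups alone, a threshold of 0.10, a block for replicate numbers and leaving out each array. The fit without the 2 arrays low in macrophage markers was added after seeing the data.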

Additional observations from a re-analysis of the deposited data

How the results depend on the processing

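With 24 alternatives, 2268 values of the 98 member results were refitted, and 4 passed, all of Srxn1 by 1426875_PM_s_at. The count of members that passed was 0 in each comparison, but 1 for the diets averaged over both genotypes with quantile normalization and with array weights. Leaving out an extract gave 0 to 1 members for the diets averaged over both genotypes and 0 to 1 for the diets in knockout livers, both without knockout low-fat replicate 3, and 0 in the other 5 comparisons. The sign changed in 129 of the 2268 values, none of them of a difference of 0.2 or more (the largest was 0.17). With the replicate number as a block, 0 members passed in any comparison. Deviations from group means correlated from -0.12 to 0.34 over 18 same-numbered pairs (mean 0.06) and from -0.41 to 0.17 over 36 other pairs (mean -0.03). As a hint from the data, not the design, 8 of 12 extracts correlated best with their own number. Not every same-numbered pair was above 0.1 and the labels name nothing that a number shares, so the block was kept as an alternative. Counts over all probe sets moved more. In knockout livers the diets gave 318 calls, against 74 with the compared groups alone, 496 with array weights, 684 at 0.10, 53 without the 2 extracts low in macrophage markers and 67 to 499 leaving out an extract. Averaged over genotypes they gave 561, against 1012, 1008, 268 and 251 to 623 (array weights, 0.10, without those 2 and leaving out an extract). In wild-type livers they gave 28, against 18 in tests on genes, 119 with array weights and 13 to 39 leaving out an extract. Between genotypes, counts were 0 to 6 under every alternative run. Under the 60% filter Pml was not tested. Signals near the lowest mean tested (3.603) limit Srxn1 by 1425351_PM_at and the lowest Nqo1 value (3.92). The number of arrays, 3 a group, limits every comparison.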
